A study of Sus scrofa with 55 samples.

Results

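Single pig oocytes taken from stage 5 antral follicles were compared with single oocytes taken from stage 4 follicles of the same animals. The comparison uses every library labelled with either stage, 10 oocytes at stage 5 and 11 at stage 4, which make up 21 of the 55 oocytes of the series. The series covers 5 antral stages in 4 wild-type pubertal gilts, 201, 205, 801 and 803, of Landrace and Yorkshire background aged 208 to 210 days. All gilts, and so both groups, had received an injection of PMSG (5 IU), a gonadotropin from pregnant mare serum that drives follicle growth, and their ovaries were taken 48 h later. The cytoplasmic RNA of each oocyte was amplified by Smart-seq2, a full-length cDNA method for single cells, with 16 PCR cycles, and the deposited values are raw counts per gene. The labels do not say which follicle size defines a stage.

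The gilt is the replicate. Gilt 201 gave 1 oocyte at stage 4 and 3 at stage 5, gilt 205 gave 2 and 3, and gilt 803 gave 4 and 4. Gilt 801 gave 4 oocytes at stage 4 and none at stage 5, so 3 gilts carry the within-animal comparison. Counts were summed over the oocytes of a gilt and stage. Levels are CPM, counts as a share of the library on the usual scale, divided by TMM scaling factors, which equalise the bulk of genes between libraries. A change is the log2 difference, stage 5 minus stage 4, fitted by edgeR in a model with stage and gilt. Its SE, given after ±, was calculated back from the test. It is the size of the change divided by the square root of the F statistic. The fit holds all 5 stages and gilt 801, so a change can depart from the differences within the 3 gilts. All differences within gilt 201 rest on its single stage 4 oocyte. In sums of oocytes, fewer cells carrying a transcript and less of it per cell cannot be told apart.

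A fully grown mammalian oocyte rests in prophase of meiosis I inside a nucleus called the germinal vesicle. The arrest is held by cyclic AMP from the follicle and by inhibitory phosphorylation of CDK1, the kinase of the maturation-promoting factor, through WEE1-family kinases. As the antral follicle nears ovulatory size, the oocyte slows its transcription, stores messages for later translation, and becomes able to resume meiosis. Cumulus cells feed it through gap junctions, and oocyte-secreted GDF9 and BMP15 act back on them.

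Most stage 4 and stage 5 libraries carried the oocyte signature, but those of gilt 803 did so only in part. The summed CPM of 8 zona pellucida and oocyte growth factor genes, before TMM scaling, ran from 196 to 29180 over the stage 4 oocytes with a median of 11074. At stage 5 it ran from 151 to 32166 with a median of 4362. Granulosa and cumulus markers exceeded it in all 4 stage 4 libraries of gilt 803 and in 2 of the 4 stage 5 libraries of that gilt, oocytes 1 and 2. None of the other 15 libraries was granulosa-rich in this sense. Changes given below without granulosa-rich libraries therefore have no stage 4 sum from gilt 803. Only gilts 201 and 205 then carry the within-animal comparison. Each library had 3 to 13 of the granulosa markers at 0 counts. Totals ran from 4883958 to 38282850 counts.

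**Figure D1:**
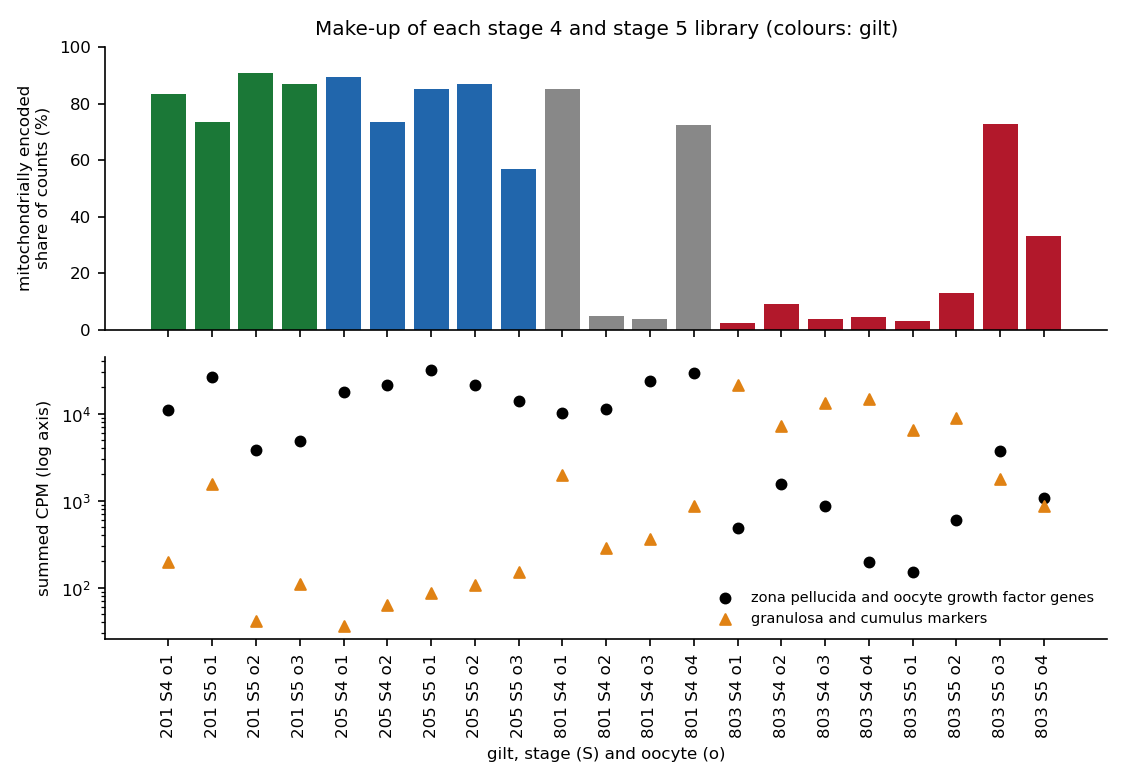
Bars give the percent of counts from mitochondrially encoded protein genes in each of the 21 libraries, and points on the log axis give the summed CPM of oocyte genes (circles) and of granulosa and cumulus markers (triangles), by gilt, stage and oocyte. Triangles lie above circles in 6 libraries, all of gilt 803, of which 4 are stage 4 and 2 are stage 5.

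The make-up of the libraries did not differ by stage beyond the spread over gilts. Mitochondrially encoded protein genes held 83.2% of counts at stage 4 and 83.8% at stage 5 in gilt 201, 81.3% and 76.3% in gilt 205, and 4.84% and 30.5% in gilt 803. The mean difference was 7.11 ± 16.3 percentage points (SD, n = 3 gilts, two-sided exact sign-flip permutation p = 0.75). Over single oocytes the share ran from 2.23% (95% Wilson interval 2.23 to 2.24) to 90.97% (90.96 to 90.99). The granulosa and cumulus level, as the mean over oocytes of log2(CPM + 1) before TMM scaling, differed by -0.04, 1.23 and -2.09 log2 units in gilts 201, 205 and 803, a mean of -0.30 ± 1.67 (exact p = 0.75, n = 3). With every library thinned to 1000000 counts, the number of detected genes went from 8649 to 5927 in gilt 201, from 8106 to 8749 in gilt 205 and from 7943 to 5718 in gilt 803. Their mean difference was -1435 ± 1817 (exact p = 0.5, n = 3), and it was -791 without gilt 201 and -2474 without gilt 205. The log10 total differed by 0.0078 ± 0.172 (exact p = 1.0, n = 3). With 3 gilts this permutation test cannot give a p below 0.25.

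No transcript passed the test between the stages. edgeR's quasi-likelihood test called 0 of 15637 genes (0%) at a Benjamini-Hochberg adjusted p under 0.05, and the adjusted p of every gene was 1.0. At an unadjusted p under 0.05 there were 279 genes higher at stage 5 (1.78%) and 187 lower (1.2%). DESeq2 called 216 genes, 58 higher and 158 lower, limma-voom called 0, and edgeR without a low-count filter called 4, all higher: STAR, LGALS3BP and 2 genes without a symbol. The median SE of a change was 1.77 log2 units, and changes over all genes had a median of 0.16, with 54.5% of genes above 0. The values that follow are therefore descriptions of these oocytes, and "higher" and "lower" state which way the measured levels lay.

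In the sums, 1725 genes were higher at stage 5 in each of the 3 gilts (11%) and 1048 were lower in each (6.7%). Oocyte by oocyte, 0 genes (0%) had every stage 5 oocyte above every stage 4 oocyte of its own gilt in all 3 gilts. The reverse order, every stage 5 oocyte below, was found for 4 genes (0.0256%), WEE1, RNPS1, MSANTD4 and THAP3. All orders are of TMM-scaled levels, and the TMM factors of the oocytes of gilt 205 ran from 0.361 to 3.05. In that gilt the order of all 4 genes depends on this scaling. WEE1 had 1.35 CPM in stage 4 oocyte 1 of gilt 205, where 3 counts are 0.674 CPM. For THAP3 and MSANTD4 the order also rested in part on levels near the counting limit, given below. How many genes would show either order by chance was not tested, so neither order is taken as a difference between the stages. In gilts 201 and 205 alone, where no library was granulosa-rich, 161 genes were fully above (1.03%) and 174 fully below (1.11%). That order in gilts 201 and 205 was also seen for FRZB and TECPR2, which lay below, and for MOS and PPP4R3B, which lay above. For TECPR2 in gilt 201 it was 0.291 CPM at stage 4, under the 0.436 CPM of 3 counts there, against 0 at stage 5.

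WEE1, a kinase that holds CDK1 inactive, is on the list of the maturation-promoting factor and MAP kinase. By TMM-scaled level it was the one gene of that list whose oocytes separated fully by stage in all 3 gilts. Its level was 4.13 CPM at stage 4 and 0.366 at stage 5 in gilt 201, 1.63 and 0.290 in gilt 205, and 47.7 and 0.236 in gilt 803. At stage 4 in gilt 801 it was 1.29 CPM. Over single oocytes it ran from 0 to 199 CPM with a median of 2.91 at stage 4, and from 0 to 0.654 with a median of 0 at stage 5. A level above 1 CPM was found in 8 of 11 stage 4 oocytes and in 0 of 10 at stage 5, where 6 oocytes had 0 counts. The 3 stage 4 oocytes under that level were all from gilt 801, the animal without stage 5, and the 4 highest stage 4 values were those of the granulosa-rich libraries of gilt 803. The fitted change was -3.98 ± 1.73 (edgeR unadjusted p = 0.0301, adjusted p = 1.0), and without granulosa-rich libraries it was -3.36. Mean levels over gilts were 5.18, 14, 0.115, 13.7 and 0.297 CPM at stages 1 to 5, so that the mean was also under 1 CPM at stage 3.

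The partners of WEE1, like all but 4 of the 15637 genes tested, did not show that order. WEE2, the oocyte form of the kinase, had 184 CPM at stage 4 and 188 at stage 5 in gilt 201, 369 and 390 in gilt 205, and 43.3 and 455 in gilt 803, a change of 0.81 ± 0.79. CDK1 had a change of -0.09 ± 0.71 and CDC25B, a phosphatase that activates CDK1, of 0.38 ± 0.98. CCNB1, the cyclin partner of CDK1, had 56.9 and 90.7 CPM in gilt 201, 57.8 and 91.3 in gilt 205, and 45 and 229 in gilt 803. Its level was thus higher at stage 5 in each gilt, with a change of 1.15 ± 0.77, but of 0.23 without granulosa-rich libraries. MOS, the kinase that starts the MAP kinase cascade of meiosis, had 66 and 146 CPM, 238 and 334 CPM, and 41.2 and 242 CPM in gilts 201, 205 and 803, with 534 CPM at stage 4 in gilt 801. The fitted change of MOS was 0.86 ± 0.89, and 0.34 without granulosa-rich libraries. MASTL, the Greatwall kinase that shields CDK1 substrates from dephosphorylation, was also higher in each gilt, with a change of 1.44 ± 0.83. PLK1, a mitotic and meiotic kinase, had 0.96 ± 0.72. Without granulosa-rich libraries PLK1 had 0.33 and WEE2 0.40. A single library, oocyte 4 of gilt 803, held 76.6% of the stage 5 counts of MASTL. It also held 76.4% of those of CDC25B, 61.5% of PLK1 and 61.2% of WEE2. Here and below such shares are of raw counts, not adjusted for depth. They are not set against the share of the library over all genes. Oocyte 4 of gilt 803 was the deepest stage 5 library, with 21707228 counts and a TMM factor of 2.73.

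Of the 19 tested genes of the maturation-promoting factor and MAP kinase list, 9 had a positive change, and the median was -0.09 against 0.16 for all genes. The 16 tested genes of cyclic AMP and cyclic GMP control of arrest had 13 positive changes and a median of 0.57. Gilt by gilt that median was -0.11, 0.10 and 0.15. PRKAR2A, a regulatory subunit of protein kinase A, went from 9.28 to 0 CPM in gilt 201, from 3.46 to 2.27 in gilt 205 and from 9.63 to 0 in gilt 803, a change of -3.04 ± 2.25. GPR12, a receptor that keeps cyclic AMP high, was near the detection limit, above 1 CPM in 0 stage 4 oocytes and in 1 at stage 5. AKAP7, an anchor of protein kinase A, had a change of 1.75 ± 1.77. Without granulosa-rich libraries it was 5.88 ± 2.59, and in gilts 201 and 205 alone 2.28 ± 2.59.

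RNPS1, MSANTD4 and THAP3 were picked out after their values were seen, for the full separation described above. RNPS1, a splicing factor of the exon junction complex, had 119 CPM at stage 4 and 60.2 at stage 5 in gilt 201, 165 and 113 in gilt 205, and 132 and 54 in gilt 803. In gilt 801, at stage 4, it had 50.5 CPM, below each stage 5 sum. The stage 5 range over oocytes was 0.122 to 83.7 CPM, and its lowest 2 oocytes were the granulosa-rich ones of gilt 803, while stage 4 ran from 36.6 to 247 CPM. The change was -0.68 ± 0.68, and -0.19 without granulosa-rich libraries. MSANTD4, named for a DNA-binding-like domain, had a change of -4.48 ± 2.24 and was above 1 CPM in 5 of 11 stage 4 and 0 of 10 stage 5 oocytes. THAP3, a zinc finger protein, had -2.18 ± 2.05, with 5 of 11 and 2 of 10 oocytes above 1 CPM. Its order rested on few counts. In gilt 201 its stage 4 oocyte had 0.872 CPM and its highest stage 5 oocyte 0.770, the level of 3 counts there. In gilt 803 the lowest stage 4 oocyte had 0.138 CPM, also 3 counts, and stage 5 was 0. There 3 counts correspond to up to 0.901 CPM at stage 5. For MSANTD4 in gilt 205 the stage 4 oocytes had 0.674 and 0.549 CPM and the highest stage 5 oocyte 0.477.

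Several transcripts lower at stage 5 were detected in most stage 4 oocytes. FRZB, a secreted antagonist of Wnt ligands, had 56.9 CPM at stage 4 and 14.4 at stage 5 in gilt 201, 28.4 and 11.1 in gilt 205, 63.1 and 2.37 in gilt 803, and 12.3 at stage 4 in gilt 801. Over oocytes it ran from 2.20 to 256 CPM with a median of 21.2 at stage 4 and from 0.113 to 25.1 with a median of 1.84 at stage 5. All 11 stage 4 oocytes were above 1 CPM, against 5 of 10 at stage 5. The groups did not overlap within gilts 201 and 205, and in gilt 803 the highest stage 5 oocyte, at 2.78 CPM, lay above the lowest stage 4 one, at 2.20. The fitted change was -2.63 ± 0.94 (edgeR unadjusted p = 0.00949, adjusted p = 1.0), and -1.84 without granulosa-rich libraries.

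GLUD1, the mitochondrial glutamate dehydrogenase, had 57.3 CPM at stage 4 and 3.01 at stage 5 in gilt 201, 31.3 and 15.9 in gilt 205, and 35.1 and 16.8 in gilt 803. Gilt 801 had 35.1 CPM at stage 4, so the 4 stage 4 sums lay above the 3 stage 5 sums. Over oocytes the median was 37.6 CPM at stage 4 (range 7 to 92.6, 11 of 11 above 1 CPM) and 2.34 at stage 5 (range 0 to 32.8, 7 of 10). Stage 5 was low in the 3 oocytes of gilt 201, in 2 of 3 of gilt 205 and in the 2 granulosa-rich oocytes of gilt 803. The change was -1.87 ± 0.82 (edgeR unadjusted p = 0.0304, adjusted p = 1.0), and -1.35 ± 1.08 without granulosa-rich libraries. Mean levels over gilts at stages 1 to 5 were 34.0, 45.2, 43.7, 39.7 and 11.9 CPM, so the lowest mean was that of stage 5.

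Among the other genes lower in each gilt were several seen in most stage 4 oocytes. POLR3F, a subunit of RNA polymerase III, was above 1 CPM in 8 of 11 stage 4 oocytes and 0 of 10 at stage 5, and its sums went from 32.8 to 0 CPM, from 3.99 to 0.241 and from 16.2 to 0 in gilts 201, 205 and 803. SYCP1, the transverse filament protein of the synaptonemal complex, was above 1 CPM in 9 of 11 and 3 of 10 oocytes, with a change of -4.57 ± 1.95. ZNF286A, a zinc finger gene, was above it in 10 of 11 and 2 of 10 oocytes, with a change of -4.87 ± 1.69.

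PPP1R21, a protein of the endosomal system, was above 1 CPM in 8 of 11 and 3 of 10 oocytes (change -5.08 ± 2.14). OSMR, the receptor subunit for oncostatin M, had 36.7 and 1.25 CPM in gilt 201, 42.4 and 11.9 in gilt 205, and 32.6 and 4.44 in gilt 803, and it had 7.86 at stage 4 in gilt 801. Its change was -3.11 ± 1.30, yet 7 of 11 and 7 of 10 oocytes were above 1 CPM, so the oocytes overlapped. In gilt 803 stage 4 oocyte 3, a granulosa-rich library, had 236 CPM and the other stage 4 oocytes at most 0.109. The stage 5 oocytes of that gilt ran from 0.122 to 31.8 CPM. Without granulosa-rich libraries the change of OSMR was -2.27 ± 1.61.

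NPY1R, a neuropeptide Y receptor, CHRDL1, a secreted BMP antagonist, ELAC1, a tRNA-processing nuclease, and TECPR2, which takes part in autophagy, complete the 12. NPY1R was above 1 CPM in 3 of 11 stage 4 oocytes, with 95% of its stage 4 counts in 1 of them, and its change was -6.82 ± 2.11. CHRDL1 had a change of -5.47 ± 2.28, and of -0.87 ± 7.56 without granulosa-rich libraries, an SE too wide for a contrast. ELAC1 had -7.42 ± 2.71. TECPR2 had -6.23 ± 2.45, and -3.04 ± 2.74 without granulosa-rich libraries, and 81.8% of its stage 4 counts were in 1 granulosa-rich library. Where sums are at or near 0 the size of a fitted change depends on the small count that edgeR adds. DESeq2 called 7 of these 12 genes, ZNF286A, SYCP1, POLR3F, PPP1R21, NPY1R, ELAC1 and TECPR2.

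**Figure D2:**
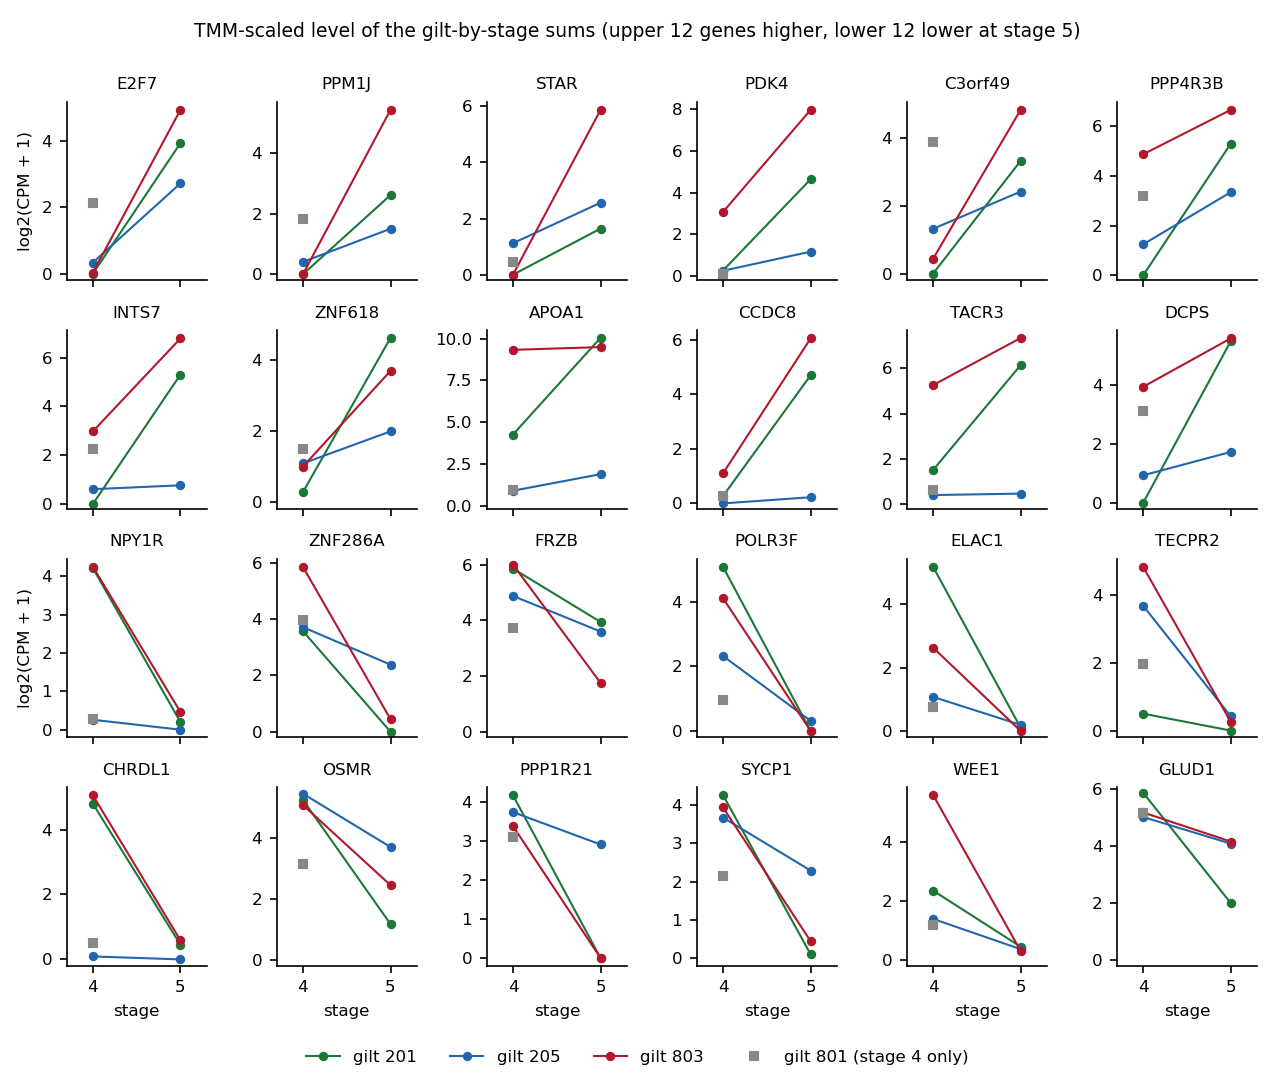
Each panel plots log2(CPM + 1) of the TMM-scaled gilt-by-stage sums of 1 gene at stages 4 and 5, with a line for each of gilts 201, 205 and 803 and a square for gilt 801, which has stage 4 only. The upper 12 genes were chosen for being higher and the lower 12 for being lower in each of the 3 gilts, so the slope of the lines is set by that choice; FRZB and GLUD1 keep counts at stage 5 in all 3 gilts, while POLR3F is at 0 in 2.

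E2F7, a repressor of E2F target genes in the cell cycle, had the smallest p of all genes. Its level was 0 CPM at stage 4 and 14.4 at stage 5 in gilt 201, 0.261 and 5.62 in gilt 205, and 0.0253 and 29.8 in gilt 803. Gilt 801 had 3.38 CPM at stage 4, above the other 3 stage 4 sums and below the 3 stage 5 sums. Over oocytes it was above 1 CPM in 3 of 11 at stage 4, all from gilt 801, and in 5 of 10 at stage 5, including the 3 of gilt 205. Oocyte 4 of gilt 803 gave 83.3% of its stage 5 counts. The change was 7.04 ± 1.85 (edgeR unadjusted p = 0.000793, adjusted p = 1.0), and 5.85 without granulosa-rich libraries. Mean levels at stages 1 to 5 were 4.59, 3.85, 4.16, 0.917 and 16.6 CPM.

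TOP2A, the topoisomerase that untangles chromosomes, had 7.63 and 49.2 CPM in gilt 201, 2.29 and 12.8 in gilt 205, and 16.2 and 49.7 in gilt 803, with 18.3 at stage 4 in gilt 801. Its change was 2.30 ± 0.89 (edgeR unadjusted p = 0.0156, adjusted p = 1.0), and 2.68 without granulosa-rich libraries. In gilt 205 the 3 stage 5 oocytes lay between 8.56 and 11.4 CPM and the 2 stage 4 oocytes at 1.35 and 1.59. In gilts 201 and 803 single oocytes at 87.4 and 60.8 CPM carried the stage 5 level, and the other stage 5 oocytes there were at or under 4.21. The stage 4 oocyte of gilt 201 had 5.38 CPM, and those of gilt 803 ran from 0.266 to 40.1. Over oocytes the median of TOP2A was thus lower at stage 5. It was 9.04 CPM at stage 4 (10 of 11 above 1 CPM) and 6.38 at stage 5 (6 of 10).

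Genes of E2F control and DNA replication leaned up with 18 of 27 positive and a median of 0.42. RBL1, the p107 pocket protein, had a change of 3.88 ± 2.04, and RRM1, a subunit of ribonucleotide reductase, of 2.32 ± 1.51. Cohesin, synapsis and recombination genes had 11 of 24 positive and a median of -0.18. SYCE2, a central element protein of the synaptonemal complex, had -3.35 ± 2.45, and 0.09 without granulosa-rich libraries. NIPBL, the cohesin loader, had 1.54 ± 1.10, and -1.28 in gilts 201 and 205 alone. Of its raw stage 5 counts 79.3% were in oocyte 4 of gilt 803. By scaled level NIPBL was higher in stage 5 oocyte 2 of that gilt, at 215 CPM, than in oocyte 4, at 185.

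Spindle and checkpoint genes had 20 of 30 positive changes and a median of 0.42, and 18 of 30 with 0.18 without granulosa-rich libraries. AURKB, the kinase of the chromosomal passenger complex, had 0.619 and 24.6 CPM in gilt 201, 19.9 and 17.4 in gilt 205, and 1.02 and 68.6 in gilt 803, a change of 2.40 ± 1.21. Without granulosa-rich libraries it was 0.17, and oocyte 2 of gilt 803, a granulosa-rich library, held 71.2% of the stage 5 counts. TPX2, a spindle assembly factor, had 1.26 ± 0.80 and CENPF, a kinetochore protein, 2.03 ± 1.43. Of the stage 5 counts of TPX2, 83.4% were in oocyte 4 of gilt 803. Of the anaphase-promoting complex and its inhibitors 11 of 17 were positive, with a median of 0.36. ANAPC10 had -3.91 ± 2.11 and ANAPC7 had 1.25 ± 0.74. Without granulosa-rich libraries these were -2.29 and 0.20, and 63.4% of the stage 5 counts of ANAPC7 were in oocyte 2 of gilt 803. CDC23 was counted in 1 stage 5 oocyte.

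Many of the genes highest at stage 5 rested on 1 or a few oocytes. PDK4, which inhibits pyruvate dehydrogenase, had 0.206 and 23.9 CPM in gilt 201, 0.196 and 1.26 in gilt 205, and 7.42 and 249 in gilt 803, with 0.0627 at stage 4 in gilt 801. Oocyte 2 of gilt 803, at 1773 CPM, gave 85.9% of its stage 5 counts, and 4 of 10 stage 5 oocytes had none. Its change was 4.14 ± 1.33, and 4.92 without granulosa-rich libraries. STAR, which brings cholesterol into mitochondria for steroid synthesis and is abundant in steroid-making follicle cells, had 0 and 2.13 CPM, 1.18 and 4.92, and 0 and 57.6 in gilts 201, 205 and 803. Oocyte 2 of gilt 803 gave 94.3% of the stage 5 counts of STAR, and its change went from 9.45 ± 2.98 to 2.62 without granulosa-rich libraries. STAR is 1 of the 4 genes that edgeR called when no low-count filter was used.

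**Figure D3:**
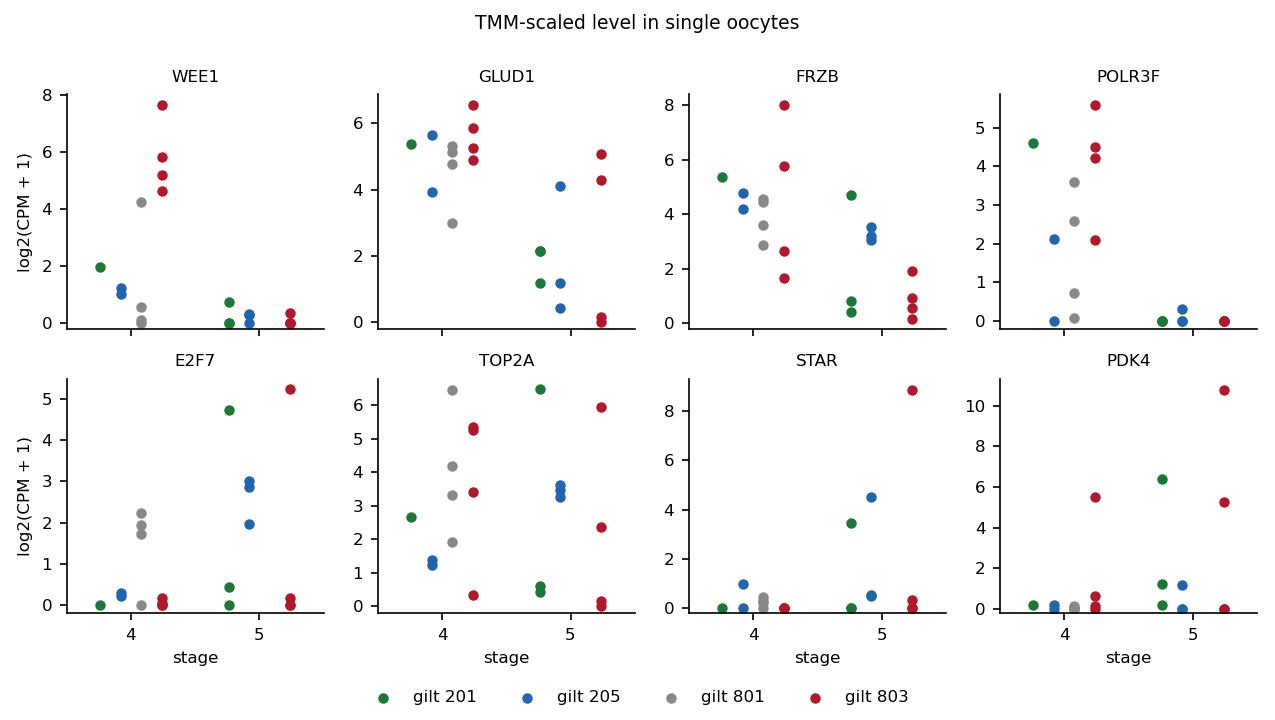
Each panel plots log2(CPM + 1), TMM-scaled, of 1 gene in every single oocyte of stages 4 and 5, coloured by gilt. WEE1, GLUD1, FRZB and POLR3F are spread over most stage 4 oocytes and low in most stage 5 oocytes, whereas STAR and PDK4 each have 1 oocyte of gilt 803 far above the rest, at 467 and 1773 CPM.

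The same oocyte 2 of gilt 803 gave 95.4% of the stage 5 counts of PPM1J, a protein phosphatase, 93.2% of INTS7, an Integrator subunit, 92.3% of TACR3, the neurokinin B receptor, and 88.4% of CCDC8. It also gave 79.4% of DCPS, the scavenger decapping enzyme, 61.2% of PPP4R3B, a regulatory subunit of protein phosphatase 4, and 40.5% of APOA1, the apolipoprotein of high-density lipoprotein. Fitted changes in that order were 8.52 ± 2.50, 4.52 ± 1.63, 4.41 ± 1.63, 5.26 ± 1.94, 3.98 ± 1.52, 3.19 ± 1.13 and 4.18 ± 1.53. PPP4R3B and APOA1 were the most widely detected of them, each above 1 CPM in 8 of 10 stage 5 oocytes and 7 of 11 at stage 4. C3orf49 had 86.7% of its stage 5 counts in oocyte 4 of gilt 803 and a change of 6.14 ± 2.15, with 13.9 CPM at stage 4 in gilt 801. ZNF618, a zinc finger gene, also had most of its stage 5 counts, 65.4%, in oocyte 4 of gilt 803, and a change of 4.28 ± 1.55. Without granulosa-rich libraries the change of PPM1J was 3.88. DESeq2 called 5 of the 12 higher genes, E2F7, PPM1J, STAR, C3orf49 and ZNF618.

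As a list, genes that define the oocyte lay close to equal at the stages in gilts 201 and 205. All 8 zona pellucida and oocyte growth factor genes had a positive fitted change, with a median of 0.20 against 0.16 for all genes, and gilt by gilt the median was 0.08, 0.07 and 1.45. Without granulosa-rich libraries 2 of the 8 were positive and the median was -0.06. ZP3, the sperm-binding egg coat protein, had 9319 and 13957 CPM in gilt 201, 15309 and 12630 in gilt 205, and 84.8 and 193 in gilt 803, a change of 0.26 ± 0.99. ZP4 had 0.50 ± 1.00, and 0.16 without granulosa-rich libraries. GDF9 had 1708 and 1776 CPM in gilt 201, 2159 and 2293 in gilt 205, and 44.5 and 72.4 in gilt 803, and its change was 0.01 ± 0.85, with a sign that turned under 9 of 18 alternatives. BMP15 had 8.66 and 107 CPM, 96.8 and 148 CPM, and 14.8 and 101 CPM, higher in each gilt, with 351 CPM at stage 4 in gilt 801 and a change of 0.96 ± 1.17. In gilt 803 the low levels of these genes at stage 4 moved with its 4 granulosa-rich libraries, and without the granulosa-rich libraries the change of ZP3 was -0.06 and that of GDF9 -0.19.

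Maternal-effect and oocyte transcription factor genes had 7 of 16 positive changes and a median of -0.09, and 5 of 16 with -0.60 without granulosa-rich libraries. ZAR1, an RNA-binding factor of the maternal-to-zygotic transition, had 80.7 and 11.1 CPM in gilt 201, 31.6 and 58.1 in gilt 205, and 30.6 and 2.59 in gilt 803, a change of -1.67 ± 1.02. FIGLA, a transcription factor of zona genes, had -2.45 ± 1.52 and OOEP, of the subcortical maternal complex, -1.28 ± 0.94. Genes of maternal mRNA storage and translational control had 16 of 24 positive and a median of 0.39, but gilt medians of -0.03, -0.16 and 0.82. Without granulosa-rich libraries 12 of the 24 were positive and the median was 0.03. DDX6, an RNA helicase of storage granules, was lower in each gilt, with 72.0 and 12.1 CPM, 95.2 and 39.9, and 47.5 and 18.1, a change of -1.40 ± 0.89. YBX1, an mRNA-packaging protein, had 1.23 ± 0.78 and PABPC1, the poly(A)-binding protein, 1.38 ± 0.95.

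Deadenylation and mRNA decay genes had 21 of 33 positive changes and a median of 0.35, while the gilt medians were -0.32, 0.17 and 0.13. CNOT6L, a CCR4-NOT subunit that shortens poly(A) tails, was higher in each gilt, with 8.66 and 22.1 CPM, 38.1 and 43.1, and 19.9 and 82.6, a change of 1.15 ± 0.79. TOB2, an adaptor of that complex, had 1.74 ± 1.01. Oocyte 4 of gilt 803 held 73.5% of the stage 5 counts of CNOT6L and 74.2% of those of TOB2. The other stage 5 oocytes of that gilt had 0, 0.564 and 11.1 CPM of CNOT6L, and its stage 4 oocytes ran from 4.09 to 64.4. DCP1B, a decapping cofactor, had -4.25 ± 2.64 and was above 1 CPM in 3 of 11 and 0 of 10 oocytes.

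Genes of protein synthesis and energy supply leaned up, mainly through gilt 201. Cytosolic ribosomal protein genes had 31 of 34 positive changes and a median of 0.76, with gilt medians of 1.85, 0.13 and -0.25. Nuclear-encoded oxidative phosphorylation had 34 of 41 positive and a median of 0.69, with gilt medians of 1.64, 0.10 and -0.27. Proteasome and ubiquitin genes had 23 of 31 positive and 0.45, with 1.25, 0.12 and -0.13. Glycolysis and pyruvate genes had 21 of 29 positive and 0.47, with 1.64, 0.26 and -0.34. In all 4 lists the median was above 0 in gilts 201 and 205 and below 0 in gilt 803. The mitochondrially encoded list had 13 of 13 positive and a median of 0.92, with 0.24, -0.47 and 3.29 in the gilts. Without granulosa-rich libraries the medians were 0.45 for the mitochondrially encoded list, 1.42 for glycolysis and 0.73 for the proteasome.

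ATP5F1A, the alpha subunit of ATP synthase, was higher in each gilt, with 34.0 and 349 CPM, 17.3 and 35.2, and 265 and 381, a change of 1.89 ± 0.86. NDUFB10 and NDUFB8, subunits of complex I, had 1.57 ± 0.86 and 1.64 ± 0.91. For NDUFB10, 81.3% of the stage 5 counts were in oocyte 1 of gilt 803, and its change was 0.53 without granulosa-rich libraries. RPS12 had 1.07 ± 0.68 (0.56 without those libraries), RPL3 1.19 ± 0.78 and RPLP1 1.07 ± 0.70. COX2, CYTB and ND4L, mitochondrially encoded subunits of the respiratory chain, had 1.25 ± 1.01, 1.31 ± 1.08 and 1.23 ± 1.02. PSMD14 and PSMD6, of the proteasome cap, had 1.67 ± 0.93 and 1.74 ± 1.02, and PSMA4, of its core, had -1.25 ± 0.77. ALDOA, the muscle-type aldolase, had 1.81 ± 1.02 while ALDOC, its brain-type paralog, had -1.93 ± 0.89. In gilt 201 the highest stage 5 levels of RPL3, ALDOA and ATP5F1A were those of oocyte 1. RPL3 had 303, 18.2 and 49.8 CPM in stage 5 oocytes 1 to 3, against 25.6 at stage 4. ALDOA had 1503, 35.4 and 292 against 120, and ATP5F1A had 502, 85.9 and 172 against 24.0.

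Cholesterol and isoprenoid synthesis had the most members with negative changes as a share, 4 of 27 being positive, with a median of -0.56. The gilt medians were -0.67, 0.19 and -1.24. MSMO1, a sterol demethylation enzyme, had 31.6 and 1.10 CPM in gilt 201, 26.9 and 36.0 in gilt 205, and 188 and 1.90 in gilt 803, a change of -2.25 ± 1.17. SC5D, a sterol desaturase, had -3.79 ± 2.19 and STARD4, a sterol carrier, -4.27 ± 2.50. Without granulosa-rich libraries the list's median was -0.08. Fatty acid and lipid droplet genes had 13 of 33 positive and -0.20, with PLIN3, a lipid droplet coat protein, at -4.28 ± 2.04 (-2.47 without those libraries). Redox defence had 17 of 25 positive and 0.60, with gilt medians of 1.29, 0.08 and -1.39. PRDX6 of that list had 0.619 and 48.7 CPM, 0.0654 and 7.24 CPM, and 124 and 24.8 CPM, so that gilt 803 went the other way, and its change was 4.82 ± 1.75. PRDX4 had 1.37 ± 0.81 and HMOX1, heme oxygenase, -3.46 ± 1.96.

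**Figure D4:**
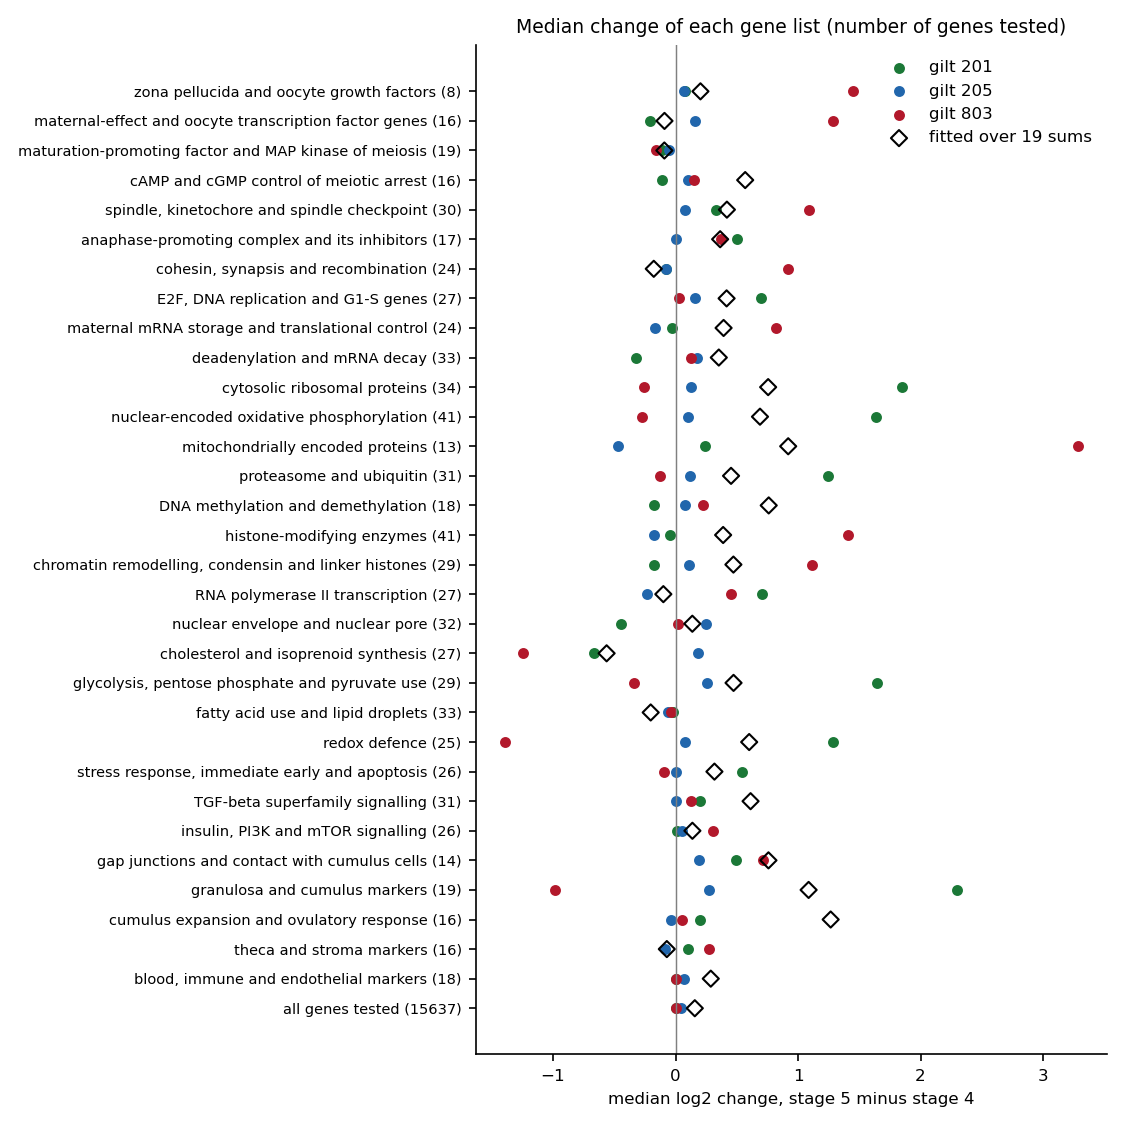
Coloured points give the median log2 change of each gene list within gilts 201, 205 and 803, and diamonds give the median of the changes fitted over all 19 sums, with the number of genes tested in brackets. The 3 gilts lie apart for ribosomal proteins (1.85, 0.13 and -0.25) and mitochondrially encoded proteins (0.24, -0.47 and 3.29), and close to 0 for all genes.

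Chromatin and transcription genes had list medians that did not share a sign over the 3 gilts. DNA methylation and demethylation genes had 13 of 18 positive and a median of 0.76, but gilt medians of -0.18, 0.08 and 0.23. DNMT1, the maintenance methyltransferase, had 1304 and 907 CPM in gilt 201, 1750 and 2212 in gilt 205, and 815 and 3709 in gilt 803, a change of 0.56 ± 0.92. DNMT3A, a de novo methyltransferase, had 0.87 ± 0.83, UHRF2 0.90 ± 0.79 and MBD4, a thymine glycosylase, -2.63 ± 1.51. Without granulosa-rich libraries DNMT1 had 0.21, DNMT3A 0.54, UHRF2 0.49 and MBD4 -1.24. Of the stage 5 counts, 67.8% of DNMT1 and 78.0% of DNMT3A were in oocyte 4 of gilt 803. Histone-modifying enzymes had 29 of 41 positive and 0.39, with HDAC1 at 1.99 ± 0.96, KMT2C at 1.67 ± 0.88 (0.99 without granulosa-rich libraries) and KDM6A at -3.14 ± 1.72. Remodelling, condensin and linker histone genes had 20 of 29 positive and 0.47, with the HP1 proteins CBX1 at 2.16 ± 1.27 and CBX5 at 1.30 ± 0.82. That oocyte held 78.4% of the stage 5 counts of CBX1.

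RNA polymerase II transcription genes had 13 of 27 positive and a median of -0.10. GTF2B, the initiation factor TFIIB, was lower in each gilt, with 62.9 and 25.4 CPM, 66.3 and 36.6, and 45.5 and 12, a change of -1.2 ± 0.95. GTF2F1, of TFIIF, had 1.67 ± 0.94 and MED14, of Mediator, 1.48 ± 0.89. Nuclear envelope and pore genes had 18 of 32 positive and 0.14, with NUP155 at -1.53 ± 0.91, NUP153 at 1.75 ± 1.2 and XPO1, the nuclear exporter, at 1.22 ± 0.85. Without granulosa-rich libraries GTF2F1 had 1.09, NUP153 had 0.80, and the median of the nuclear envelope list was -0.19. For MED14 72.9% and for XPO1 75.0% of the stage 5 counts were in oocyte 4 of gilt 803.

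Among signalling genes, those of the TGF-beta superfamily had 24 of 31 positive changes and a median of 0.61, with gilt medians of 0.20, 0.01 and 0.12. TGFB3, a ligand, was higher in each gilt, with 1.86 and 10.0 CPM, 0 and 0.748, and 0 and 2.58, a change of 5.67 ± 2.65, but it was above 1 CPM in only 1 of 11 stage 4 and 2 of 10 stage 5 oocytes. SMAD7, the inhibitory SMAD, had -7.77 ± 3.09, with 93.1% of its stage 4 counts in 1 oocyte, and -5.02 without granulosa-rich libraries. Insulin, PI3K and mTOR genes had 14 of 26 positive and 0.14, and PIK3CB, a catalytic PI3K subunit, had 3.56 ± 2.38. INSR, the insulin receptor, had -3.49 ± 2.34, and 0.09 without granulosa-rich libraries, and the ligand IGF1 had -3.73 ± 2.63, with 83.7% of its stage 4 counts in 1 oocyte. Stress and apoptosis genes had 15 of 26 positive and 0.32, with GADD45A at 2.76 ± 1.62, HSPD1 at 1.08 ± 0.81 and BCL2L1, which blocks apoptosis, at 1.2 ± 0.94. Without granulosa-rich libraries GADD45A had 6.81 ± 3.05, BCL2L1 had 0.57, and the stress list median was 0.79. For BCL2L1, 70.8% of the stage 5 counts were in oocyte 4 of gilt 803.

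Genes of gap junctions and cumulus contact had 12 of 14 positive changes and a median of 0.76, with gilt medians of 0.49, 0.19 and 0.71. GJA1, connexin 43 of the cumulus and granulosa side, had 8.87 and 61.6 CPM in gilt 201, 1.37 and 4.92 in gilt 205, and 300.3 and 230 in gilt 803, a change of 1.97 ± 1.07. CDH2, N-cadherin, had 16.9 and 86.9 CPM, 0.131 and 4.95 CPM, and 165 and 38.0 CPM, a change of 2.60 ± 1.23. FSCN1, which bundles actin, had 2.57 ± 1.77, and 6.09 ± 2.73 without granulosa-rich libraries. GJA1 and CDH2 are also on the granulosa marker list.

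Granulosa and cumulus markers as a whole had 15 of 19 positive changes and a median of 1.09, and 2.15 without the granulosa-rich libraries. After TMM scaling their summed level was 451 and 1602 CPM in gilt 201, 77.1 and 133 in gilt 205, 5567 and 2334 in gilt 803, and 173 at stage 4 in gilt 801. FSHR, the follicle-stimulating hormone receptor, had 0 and 82.9 CPM, 0.392 and 0.483 CPM, and 124 and 62.1 CPM, a change of 3.11 ± 1.98, and NR5A2, a granulosa transcription factor, had 4.00 ± 1.67. In gilt 201 oocyte 1 carried the marker rise. Before TMM scaling it had 1557 CPM, stage 5 oocytes 2 and 3 had 41.2 and 109, and the stage 4 oocyte had 197. In the sums of gilt 201 the ribosomal, oxidative phosphorylation, glycolysis and gap junction genes were higher at stage 5 together with these markers. The part of granulosa RNA in those lists was not tested.

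Markers of other follicle and blood cells gave small lists with wide spread. Cumulus expansion and ovulatory response genes had 9 of 16 positive and a median of 1.27, with gilt medians of 0.20, -0.04 and 0.05. Theca and stroma markers had 8 of 16 positive and -0.07, with COL1A1, a fibrillar collagen, at 3.23 ± 1.39. Of the stage 5 counts of COL1A1, 93.9% were in oocyte 4 of gilt 803. Its change was 8.57 ± 2.84 without granulosa-rich libraries, and 2.45 ± 2.15 in gilts 201 and 205 alone. ACTA2, smooth muscle actin, had 0 and 421 CPM, 9.54 and 0.0965 CPM, and 189 and 157 CPM in gilts 201, 205 and 803, and a change of 5.23 ± 2.57. Blood, immune and endothelial markers had 10 of 18 positive and 0.29, and C1QC, a complement chain, had a change of 6.53 ± 2.60 with counts in 2 of 10 stage 5 oocytes. DNMT3L, PPARA, DGAT1, TGFB2, TNC, PTX3, PDGFRA, NKG7 and LHCGR were above 1 CPM in at most 2 oocytes of either stage, and CD68 in 1 at stage 4 and 3 at stage 5. No member of any of the 31 lists passed the edgeR test at an adjusted p under 0.05 with the low-count filter, as for all genes, and without that filter STAR did.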

How the data were processed

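The authors deposited a table of raw counts for 55 oocytes, whole numbers without normalization, with genes as Ensembl IDs. The submitters' processing notes name HISAT2 2.1.0, featureCounts, StringTie 1.2.2 and Trim Galore 0.4.3. No genome build, annotation or strand setting is given in the labels or headers used here, and gene positions are left out. Of 25880 IDs, 14857 were matched to a symbol. A second deposited table was not used here because its last line is incomplete.

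The oocytes of each gilt and stage were summed, giving 19 sums, to which edgeR's quasi-likelihood model was fitted (version 4.0.16, R 4.3.3; scaling by TMM, low counts removed by filterByExpr, terms for stage and gilt, 11 residual degrees of freedom, two-sided, Benjamini-Hochberg adjustment over 15637 genes). The fit was tested on simulated data. The common biological coefficient of variation was 1.24. The other stages, and gilt 801, enter through the shared spread and the gilt terms, and gilt 801 also enters through the stage 4 term. A fitted change is thus not the within-gilt difference alone. In the 6 stage 4 and 5 sums of gilts 201, 205 and 803, ACTA2 had -0.27 against 5.23 in the main fit. NIPBL had 0.17 against 1.54, and BMP15 had 2.29 against 0.96. TMM factors of the stage 4 and 5 sums ran from 0.339 to 3.38, and 3 counts correspond to between 0.0111 and 0.619 CPM in them, the limit below which a level of 0 says nothing. Levels of single oocytes were scaled over the 55 libraries separately. Gilt changes and list medians by gilt use log2(CPM + 1), and fitted list medians can lie outside the range of the gilt medians. No 0 was replaced. Since PCR copies of 1 molecule are counted more than once, intervals and limits hold counting error alone.

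Gilt was kept as a block because the labels name the animals. Deviations of sums from their stage means had a mean correlation of 0.102 within gilts and -0.0318 between gilts. For the stage 4 and 5 sums it was -0.036, 0.320 and 0.067 in gilts 201, 205 and 803.

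Genes named are the 12 with the smallest p in each direction (at least 10 CPM in the higher stage, same sign in 3 gilts), up to 3 members of each of 31 lists by p, and a fixed set of oocyte and granulosa genes; NLRP5 and CYP19A1 of that set matched no symbol and AMH did not pass the filter. WEE2, CDK1, CDC25B, PLK1, RNPS1, MSANTD4 and THAP3 were added after their values were seen. The oocytes compared and the lists were chosen with earlier results of these data known. Alternatives used DESeq2 1.42.0 and limma 3.58.1, other scaling and filters, other sets of sums and each gilt left out. Libraries were called granulosa-rich where granulosa and cumulus marker counts exceeded those of the zona and growth factor genes. Leaving them out removed every stage 4 library of gilt 803 but kept its stage 5 oocytes 3 and 4. These had no stage 4 partner, so only gilts 201 and 205 were paired. A change in this alternative can thus differ from that in gilts 201 and 205 alone.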

Additional observations from a re-analysis of the deposited data

Results flagged for a closer look

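In each group of 4 samples the highest or lowest value was set against the others by Dixon's criterion at its 95% critical value. Of 127 groups looked at, 15 held such a value, and chance gives about 1 in 20. At stage 4, oocyte 4 of gilt 803 had 8886 genes at an equal depth of 1000000 counts, above the other 3 of its gilt. The rest concern stage 4 sums of 4 gilts on the log2(CPM + 1) scale. Gilt 801 stood apart for E2F7 (2.13, higher) and for OSMR (3.15, lower). Gilt 803 stood apart and higher for PDK4 (3.07), ZNF286A (5.86), AKAP7 (3.78), HDAC1 (7.44), MSMO1 (7.56), HMOX1 (6.09), INSR (3.23), NR5A2 (5.04) and C1QC (0.95), and lower for CDK1 (4.93). Gilt 201, with its single oocyte, stood apart and higher for DCP1B (3.72) and lower for CBX1 (0.50).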

How the results depend on the processing

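The count of 0 called genes was kept under other scaling factors, limma-voom, 7 or 6 sums, oocytes as libraries, equal weights, and without mitochondrially encoded genes, granulosa-rich libraries or shallow libraries. It was also 0 with no replicate block and in gilts 201 and 205 only, an alternative chosen after seeing the data. DESeq2 called 216 and edgeR without a filter 4. With each gilt left out, the count ran from 0 to 1, the 1 coming without gilt 201. Unadjusted counts ran from 106 genes in the 6 paired sums to 1349 by DESeq2.

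The difference in mitochondrially encoded share ran from -2.19 (without gilt 803) to 13.2 (without gilt 205), and was -2.19 without granulosa-rich libraries. The granulosa level difference ran from -1.06 to 0.60 with a gilt left out, and was 0.60 without granulosa-rich libraries. The difference in genes detected at equal depth ran from -2474 (without gilt 205) to -791 (without gilt 201). The log10 total ran from -0.054 to 0.106 with a gilt left out and was -0.0064 with medians over oocytes.

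Of 1981 changes of 111 genes under alternatives, 46 had the sign turned, in 19 genes, and 14 passed the threshold, 13 of them under DESeq2. GDF9 was -0.11 with RLE factors, -0.16 with upper-quartile factors, -0.11 by DESeq2, -0.027 without a filter, -0.19 without granulosa-rich libraries, -0.37 with equal weights and -0.016 without shallow libraries. Under limma-voom BMP15 was -0.062, PRDX6 -0.022 and CDH2 -1.03. With no replicate block PRDX6 was -0.27, CDH2 -0.093, FSCN1 -0.18 and CDK1 0.090. With a gilt left out, GDF9 ran from -0.16 to 0.18, with negative values without gilts 201 (-0.16) and 205 (-0.15). Without gilt 201 the sign turned for FSHR (range -0.43 to 4.91), AKAP7 (-0.22 to 3.44) and ACTA2 (-1.53 to 7.85). Without gilt 803 it turned for MOS (-0.15 to 1.51), DNMT1 (-0.52 to 0.96), DNMT3A (-0.63 to 1.37), NIPBL (-0.65 to 1.89), BCL2L1 (-0.079 to 1.92), CDK1 (-0.61 to 0.45) and CDC25B (-1.30 to 1.45). Without granulosa-rich libraries ZP3 was -0.065, SYCE2 0.090, INSR 0.088, CDK1 0.069 and CDC25B -0.23. With equal weights NIPBL was -0.11, C1QC -0.10, DNMT1 -0.27, DNMT3A -0.15 and CDC25B -0.49. With each oocyte as a library AKAP7 was -0.20. In 7 sums ACTA2 was -0.38 and CDC25B -0.20, and in 6 sums -0.27 and -0.26. In gilts 201 and 205 only, NIPBL was -1.28, DNMT1 -0.13, DNMT3A -0.59, CDK1 0.29 and CDC25B -1.85. The cause was not tested. Of 557 list medians, 134 moved by 1 SD or more. With 3 gilts and a median SE of 1.77 log2 units, changes of the size given here in single genes cannot be told from the spread between animals.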
